A study of Mus musculus with 14 samples.

Results

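The amino acid and serine synthesis genes of the ATF4 programme were described here in cultured mouse tumor-derived cells with a control guide (sgControl) or with one against Nsd3 (sgNSD3), a gene for a histone H3 lysine 36 methyltransferase. The set consisted of 10 genes named by symbol, Atf4, Atf5, Trib3, Chac1, Asns, Phgdh, Psat1, Shmt2, Mthfd2 and Slc7a5, out of 55433 genes in the RNA table. All 10 were also among the 22470 scored gene bodies. RNA was measured in 3 libraries per condition. Both conditions were of strain C57BL/6 at passage 6 to 8, so they differed, as far as the labels say, only in the guide. The labels name neither the tumor type nor the guide sequences, they do not say whether the cells were clones or pools, and they do not tie the 3 libraries of a condition to separate cultures, so the p-values cover the spread among these libraries, and that spread may be technical.

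ATF4 is a transcription factor whose protein is made when phosphorylation of the initiation factor eIF2 slows general translation, for instance during amino acid shortage or protein misfolding in the endoplasmic reticulum. Much of its control lies in translation, through short reading frames ahead of its coding sequence, so its RNA level is not a measure of its protein. ATF4 pairs with C/EBP and related factors at composite promoter elements of genes that import amino acids, synthesise serine, glycine and asparagine, charge tRNAs and feed the folate cycle, and it is known to be used by many tumor cells to supply amino acids.

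The libraries held between 20294828 and 21863833 recovered counts, of which mitochondrial mRNA took 0.637% to 0.864% and transcripts of ribosomal RNA loci 8.22% to 10.7%, with both ends of the second range in sgControl (replicates 3 and 1) and 9.47% to 9.63% in sgNSD3. The sgControl libraries were less alike than the sgNSD3 libraries. The chi-square of counts over genes per degree of freedom was 9.58 and 6.40 between sgControl replicate 1 and replicates 3 and 2, 2.84 between the latter, 1.32 to 1.44 within sgNSD3 and 7.20 to 8.07 between the conditions. The part of these differences in the results below was not tested, and values without replicate 1 of sgControl stand beside the calls they end. Nsd3 RNA, the check on the labels, was higher in sgNSD3, at 21837 to 22012 normalized counts against 14402 to 14675 in sgControl, so each direction below rests on the labels. A normalized count is a recovered read count divided by the size factor of its library. Of the marker genes, all 9 of fibroblasts and mesenchymal cells passed the expression filter, with a summed level of 1115472 to 1198991 normalized counts in sgControl and 1257937 to 1266762 in sgNSD3. Among these 9, Col1a1, Fn1 and Pdgfrb were called higher, Pdgfra lower and 5 were not called. Of 10 squamous and epithelial markers 4 passed, with sums of 4265 to 4828 in sgControl and 3078 to 3111 in sgNSD3. Most of this was Krt19 (means of 3911 and 2676). Krt14, Krt18 and Krt19 were called lower, Krt8 was not called, and Epcam was at 0 in all libraries. Trp63 and Sox2, below the filter, went the other way, with all sgNSD3 libraries above all sgControl libraries. Their means in sgControl and sgNSD3 were 1.03 and 3.95 (Trp63) and 1.96 and 6.27 (Sox2). Leukocyte markers summed to 62 to 87 normalized counts in any library, with Cd3e and Adgre1 at 0, and endothelial markers to 120 to 144 in sgControl and 197 to 237 in sgNSD3, most of it Kdr (means of 115 and 190, called higher), with Pecam1 at means of 6.63 and 6.69 and Cdh5 at 0.319 and 0.326. The part of these markers in the results below was not tested. In bulk RNA, fewer cells of a type and less RNA per cell cannot be told apart.

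Atf4 and Atf5, the transcription factors of the set, were the only members whose RNA passed the test, and both were slightly lower in sgNSD3. Atf4 (chromosome 15, 80255184 to 80257545, mm10), the factor that gives the programme its name, stood at 5222, 4876 and 5106 normalized counts in replicates 1, 2 and 3 of sgControl. In sgNSD3 the values, in the same order, were 4594, 4798 and 4620. All sgNSD3 libraries lay below all sgControl libraries, although the highest sgNSD3 and the lowest sgControl library were close. The means were 5068 ± 176 and 4671 ± 111 normalized counts (n = 3 each, SD), a 1.09-fold fall and a log2 fold of -0.12 ± 0.032 (SE; limma adjusted p = 0.0151). Without sgControl replicate 1 the limma adjusted p was 0.031. The Atf4 call was lost without sgNSD3 replicate 1 or 3 (limma adjusted p = 0.107 and 0.0906) and under quantile normalization (adjusted p = 0.079).

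Atf5 (chromosome 7, 44812256 to 44816658), a related factor that is also translated under eIF2 phosphorylation, had 3666, 2923 and 3320 normalized counts in sgControl and 3160, 2562 and 2948 in sgNSD3. The conditions overlapped, and replicate 2 was the lowest and replicate 1 the highest in each of them. In both conditions the library with the lowest Atf5 value was also the one with the largest total, 21744401 counts in sgControl and 21863833 in sgNSD3; the part of depth in the result was not tested. The means were 3303 ± 372 and 2890 ± 303 normalized counts (n = 3 each, SD), a 1.14-fold fall and a log2 fold of -0.19 ± 0.062 (SE; limma adjusted p = 0.0366). The Atf5 call was lost without sgControl replicate 1 or 3 or sgNSD3 replicate 2 or 3 (adjusted p = 0.188, 0.0937, 0.324 and 0.0717, limma), and under quantile normalization (adjusted p = 0.105), without a mean-variance trend (0.0605) and under upper-quartile scaling (0.0577). RefSeq places part of Nup62 over the same stretch, and without knowledge of stranded counting reads of the overlap cannot be told apart. Nup62, a nuclear pore gene, fell from 1513 ± 54.1 to 1385 ± 30.9 normalized counts (n = 3, SD; limma adjusted p = 0.0401).

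**Figure D1:**
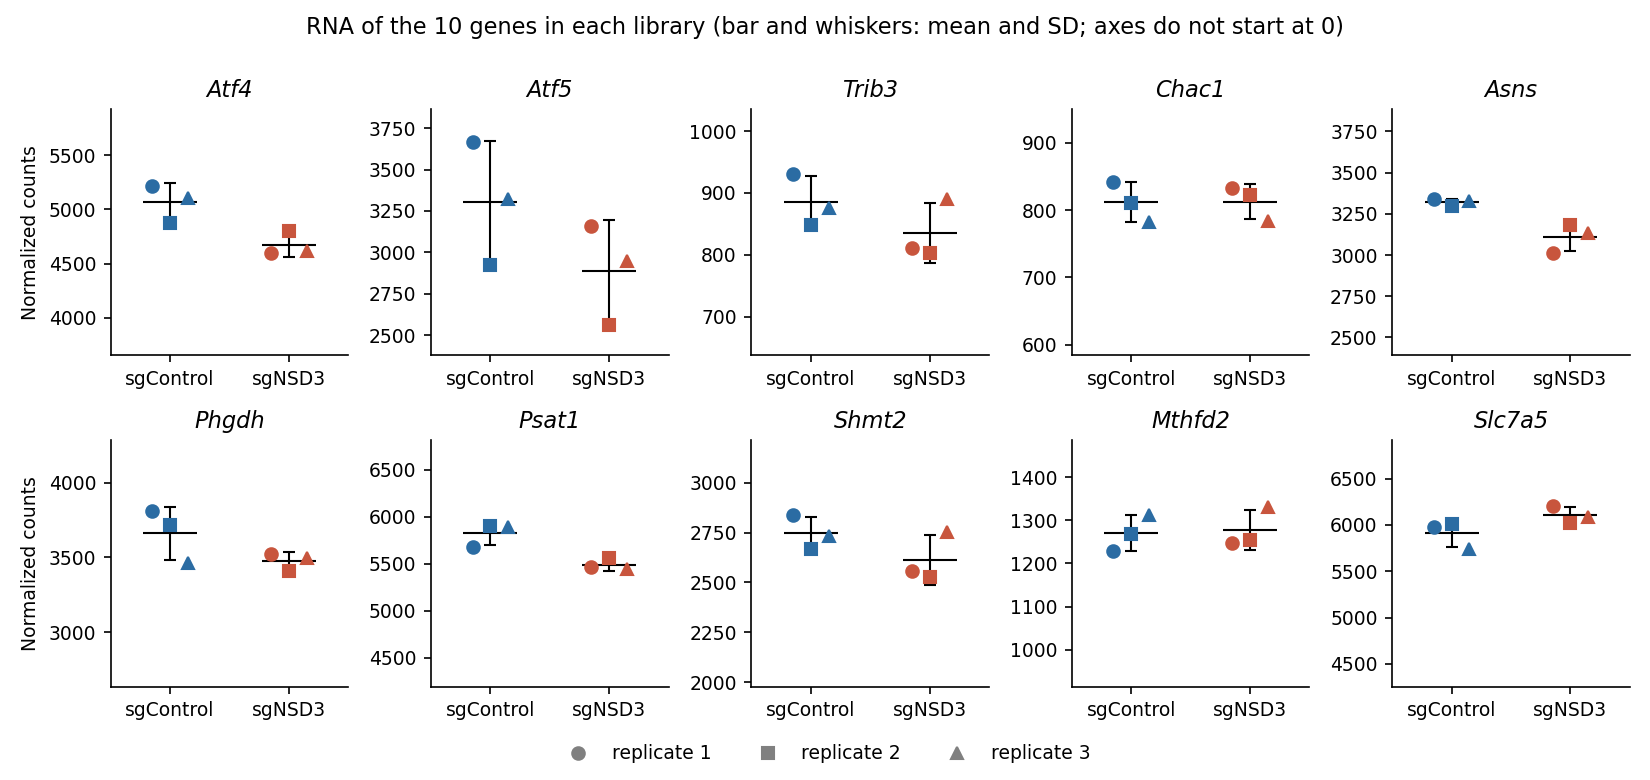
Normalized counts (y axis, linear, not starting at 0) of the 10 genes in each of 3 sgControl and 3 sgNSD3 libraries (x axis), with marker shapes for replicate numbers and a bar with whiskers for the mean and SD. Every Atf4, Asns and Psat1 value in sgNSD3 lies below the sgControl values, Slc7a5 lies above them, and the other genes overlap.

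Of the members with a promoter window in RefSeq, 3 of 9 hold a match to the C/EBP-ATF response element, through which ATF4 is known to act. The sequences of these 3, Asns, Chac1 and Trib3, are shown. None of the 3 was called, and the called members Atf4 and Atf5 held no match. The motif searched was TGATGNAA on both strands, in windows from 250 bases before to 50 bases after each gene start (RefSeq, GRCm38.p6, the assembly of mm10). Of all 27025 genes with such a window, 4.51% held it, as did 3.97% of all 32851 windows. The cyclic AMP response element TGACGTCA, which no 8 bases can match together with the first motif, was found in 0 of the 9 genes, in 2.03% of all genes and in 1.79% of all windows. Capitals mark the match, and the lines run 5′ to 3′ on the strand of the gene, for Asns from -250 to -1 (chr6:7693210-7693459, minus strand), for Chac1 from -250 to -1 (chr2:119350992-119351241, plus strand) and for Trib3 the 30 bases around a match that begins at position 15 after the start (chr2:152344032-152344061, minus strand).
Asns: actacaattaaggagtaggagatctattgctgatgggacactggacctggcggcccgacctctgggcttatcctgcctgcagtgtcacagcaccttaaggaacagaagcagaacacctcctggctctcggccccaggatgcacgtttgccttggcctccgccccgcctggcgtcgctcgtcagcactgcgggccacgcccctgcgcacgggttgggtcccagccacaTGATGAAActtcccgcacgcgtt
Chac1: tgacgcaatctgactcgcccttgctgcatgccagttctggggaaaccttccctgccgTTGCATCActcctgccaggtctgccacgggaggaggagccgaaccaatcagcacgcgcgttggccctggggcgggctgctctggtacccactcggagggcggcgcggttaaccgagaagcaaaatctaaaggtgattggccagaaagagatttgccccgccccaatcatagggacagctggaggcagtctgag
Trib3: cagattagctcaggtTTACATCAgccgggc
The Asns match begins 23 bases before the start on the strand of the gene, and the Chac1 match 193 bases before the start on the other strand. A match describes letters in a window and is not evidence of binding. Slc7a5 had no entry in the table.

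**Figure D2:**
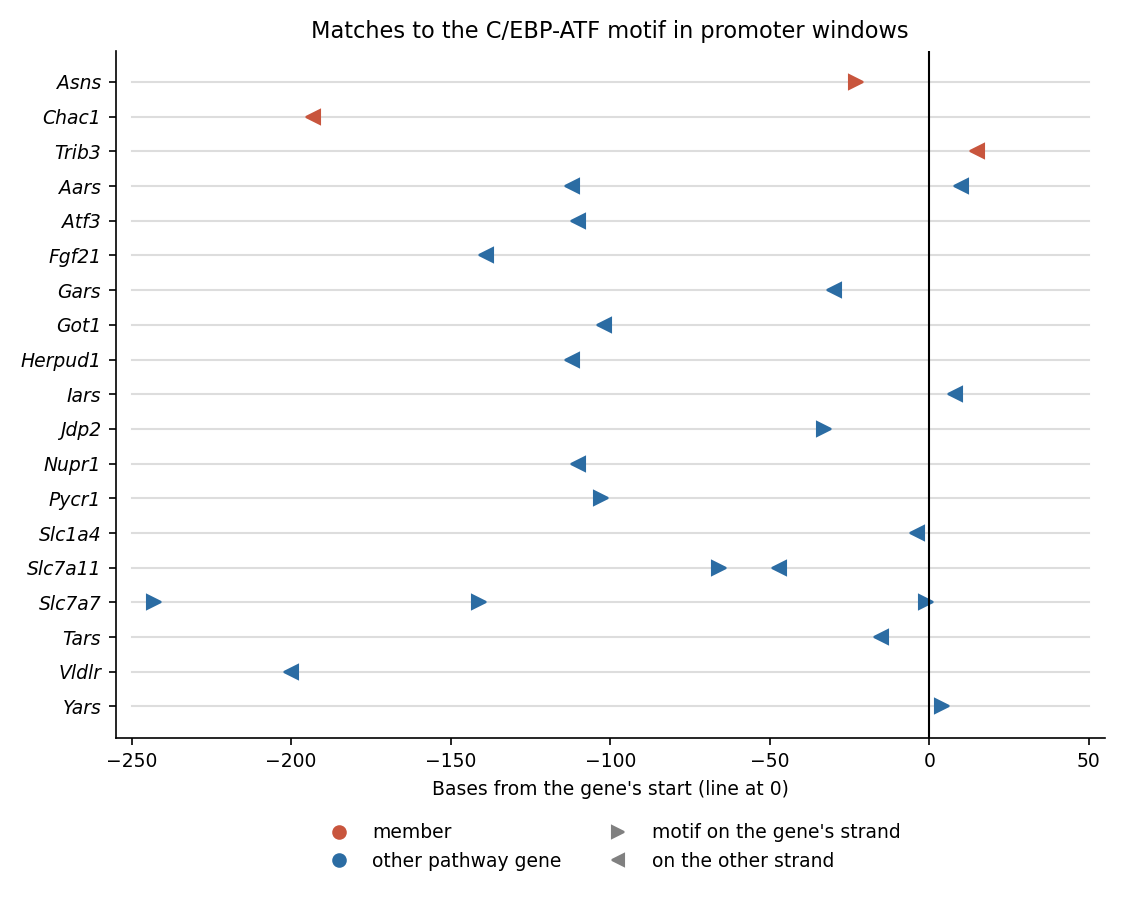
Position of each match to TGATGNAA relative to the gene start (x axis, bases; line at 0) for members and other pathway genes with at least 1 match (rows); arrowheads give the strand relative to the gene. The matches of Asns, Chac1 and Trib3 begin at -23, -193 and 15.

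Asns (chromosome 6, 7675165 to 7693209), the enzyme that makes asparagine, had 3337, 3297 and 3328 normalized counts in sgControl and 3014, 3180 and 3133 in sgNSD3. Its conditions did not overlap, and the sgControl libraries were close together. The means were 3321 ± 21.3 and 3109 ± 86 normalized counts (n = 3 each, SD), a ratio of 0.936 with a 95% interval of 0.893 to 0.981. Asns missed the threshold (log2 fold -0.10 ± 0.033, SE; limma adjusted p = 0.0554), and it was called among genes with a mean of at least 32 normalized counts (limma adjusted p = 0.0468), where fewer genes are tested.

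The members that encode enzymes of serine synthesis from glycolysis, Psat1 and Phgdh, were not called, with Psat1 nearer to the threshold. Psat1 (chromosome 19, 15905123 to 15925059), the transaminase of the pathway, had 5685, 5900 and 5890 normalized counts in sgControl and 5464, 5562 and 5446 in sgNSD3, without overlap. Its means were 5825 ± 121 and 5491 ± 62.6 normalized counts (n = 3 each, SD; ratio 0.943, 95% interval 0.904 to 0.983; limma adjusted p = 0.0591), and without sgControl replicate 1 the limma adjusted p was 0.00921. Psat1 was also called among genes with a mean of at least 32 normalized counts (limma adjusted p = 0.0492). Phgdh (chromosome 3, 98313171 to 98339969), the dehydrogenase of the entry step, had 3806, 3714 and 3460 normalized counts in sgControl and 3521, 3411 and 3498 in sgNSD3. The lowest sgControl value lay within the sgNSD3 range. Its ratio was 0.95 with a 95% interval of 0.903 to 1.00 (limma adjusted p = 0.192), and without that sgControl replicate 3 the limma adjusted p was 0.027. A processed copy, Phgdh-ps1, had at most 3.04 normalized counts in any library.

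Psph, the phosphatase that completes serine synthesis, is no member but stands in the list of other serine, glycine and folate genes, and it was called. It had 861, 813 and 793 normalized counts in sgControl and 745, 708 and 704 in sgNSD3, without overlap. The means were 822 ± 34.9 and 719 ± 22.8 normalized counts (n = 3 each, SD), a 1.14-fold fall (limma adjusted p = 0.0125). The Psph call was lost without sgNSD3 replicate 2 or 3 (limma adjusted p = 0.0694 and 0.0719).

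The mitochondrial one-carbon enzymes, which turn serine into glycine and folate-bound formyl groups, were not called. Shmt2 (chromosome 10, 127517123 to 127522444), the serine hydroxymethyltransferase of mitochondria, had 2836, 2669 and 2732 normalized counts in sgControl and 2556, 2526 and 2754 in sgNSD3. Replicate 3 of sgNSD3 lay within the sgControl range while the other two lay below it. Its ratio was 0.951 (95% interval 0.90 to 1.00; limma adjusted p = 0.231). Mthfd2 (chromosome 6, 83305704 to 83326011), the dehydrogenase and cyclohydrolase that follows, had 1229, 1267 and 1312 normalized counts in sgControl and 1248, 1253 and 1331 in sgNSD3. These values interleaved, with a ratio of 1.01 and a 95% interval of 0.945 to 1.07 (limma adjusted p = 0.93).

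The stress-responsive members Trib3 and Chac1 overlapped between the conditions. Trib3 (chromosome 2, 152337425 to 152344060), a pseudokinase that restrains ATF4 in feedback, had 931, 849 and 876 normalized counts in sgControl and 810, 804 and 891 in sgNSD3. Only sgNSD3 replicate 3 reached into the sgControl range. The Trib3 ratio was 0.943 (95% interval 0.875 to 1.02; limma adjusted p = 0.337). Chac1 (chromosome 2, 119351242 to 119354326), which degrades glutathione, had 842, 811 and 782 normalized counts in sgControl and 832, 823 and 783 in sgNSD3. The 2 means were 812 ± 29.7 and 813 ± 26 normalized counts (n = 3 each, SD), with a 95% interval of the ratio of 0.932 to 1.08 (limma adjusted p = 0.988).

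Slc7a5 (chromosome 8, 121881146 to 121907686), the large neutral amino acid transporter, was the member with the highest ratio. It had 5974, 6007 and 5744 normalized counts in sgControl and 6200, 6017 and 6088 in sgNSD3. The groups did not overlap, but sgControl replicate 2 and sgNSD3 replicate 2 were nearly level. The ratio was 1.03 (95% interval 0.99 to 1.08; limma adjusted p = 0.354). Slc3a2, the heavy chain that Slc7a5 needs at the cell surface, had means of 4263 ± 139 and 4143 ± 156 normalized counts (n = 3 each, SD; limma adjusted p = 0.50).

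**Figure D3:**
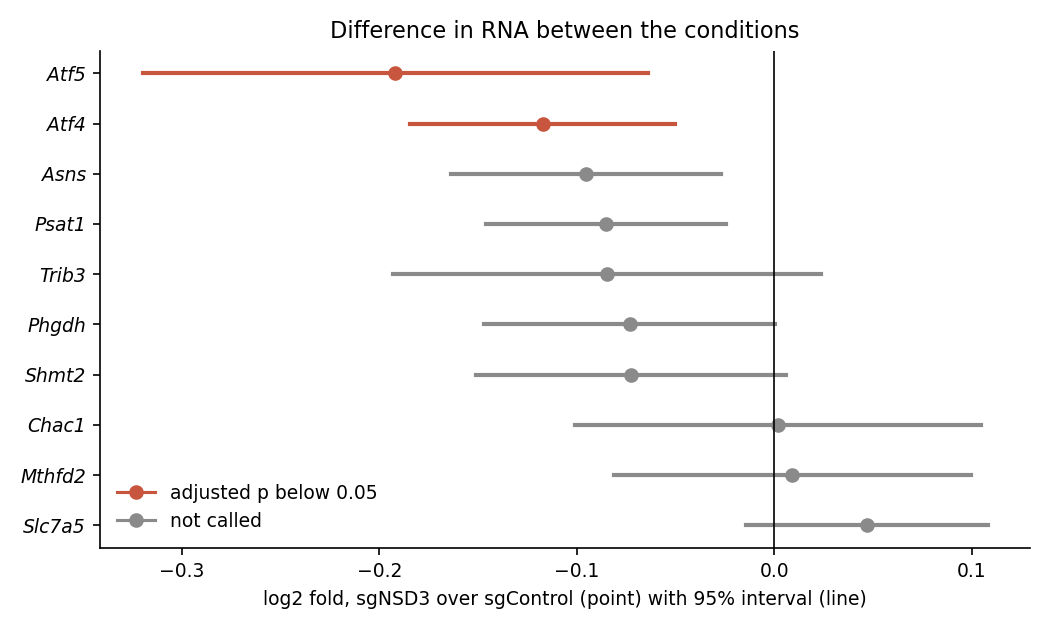
Log2 fold of sgNSD3 over sgControl (x axis; point) with its 95% interval (line) for the 10 genes (y axis), from limma on log2(normalized count + 1). Atf5 (-0.19) and Atf4 (-0.12) are called; the intervals of Asns and Psat1 also lie below 0 without passing the adjusted threshold.

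Counted together, 2 of 10 members were called lower, where 6.44% of the 18263 tested genes were, and 0 were called higher, where 5.44% were. The tested genes include many of much lower level than the members, and no share among genes at the members' level was computed. By limma at an unadjusted p below 0.05, 5 members were lower, where 13.0% of all tested genes were, and 0 higher, where 11.7% were. At the adjusted threshold, limma's voom on the recovered counts called 2 members lower and 0 higher. All sgNSD3 libraries lay below all sgControl libraries for 3 members, against 14.4% of tested genes, and above them for 1 member, against 14.0%. The log2 folds ran from -0.19 for Atf5 to 0.05 for Slc7a5, with a median of -0.08, where the median over all tested genes was 0.00071. Among all called genes the median absolute log2 fold was 0.26, larger than that of any member. The count of 2 became 1 without sgNSD3 replicate 1 or 2, 0 without sgNSD3 replicate 3, 0 under quantile normalization, and 4, with Asns and Psat1, among genes with a mean of at least 32 normalized counts. Without sgControl replicate 1 it was also 2, with Psat1 in place of Atf5.

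Upstream of ATF4, the genes of eIF2 phosphorylation and exchange showed 1 fall and 0 rises among 15 tested genes, near the 6.44% and 5.44% of all tested genes that were called lower and higher. At an unadjusted p below 0.05, limma put 2 of the 15 higher and 2 lower, where 11.7% and 13.0% of all tested genes were. At the adjusted threshold, voom called 0 of the 15 higher and 1 lower. The list median log2 fold was -0.06. Eif2b5, the catalytic subunit of the eIF2 exchange factor, fell 1.12-fold, from 987 ± 2.16 to 882 ± 43.3 normalized counts (n = 3, SD; limma adjusted p = 0.0234). Leaving out sgControl replicate 2, sgNSD3 replicate 1 or sgNSD3 replicate 2 ended its call (adjusted p = 0.0607, 0.167 and 0.0837, limma). The kinases were not called. Eif2ak4, the sensor of uncharged tRNA, had means of 1062 ± 45.1 and 1138 ± 21.3 normalized counts (limma adjusted p = 0.158), and Eif2ak3, the sensor of the endoplasmic reticulum, 787 ± 25.1 and 749 ± 23.2 (adjusted p = 0.402; SD, n = 3 each).

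Among 9 partner and downstream transcription factors, 1 rose and 1 fell, where 5.44% and 6.44% of all tested genes did. Cebpb, which can pair with ATF4, had 1400, 1032 and 2004 normalized counts in sgControl and 2315, 2488 and 2434 in sgNSD3. The groups did not overlap, and the sgControl libraries were spread widely. Cebpb was 1.63-fold higher (limma adjusted p = 3.29e-05). Jdp2, a repressor of the same family of leucine zipper proteins, fell 1.12-fold, from 1052 ± 65.4 to 943 ± 14.4 normalized counts (n = 3, SD; limma adjusted p = 0.0351). Its call was lost without any 1 library except sgControl replicate 3 (limma adjusted p up to 0.15). Quantile normalization (limma adjusted p = 0.0655) and leaving out the count filter (0.0561) also ended the Jdp2 call. Ddit3, which encodes the stress factor CHOP, had means of 296 ± 34.5 and 287 ± 5.87 normalized counts (n = 3 each, SD; limma adjusted p = 0.82).

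Of 19 tested genes in the list of other serine, glycine and folate genes, 2 fell, Psph and Mat2a, and 0 rose. Over all tested genes, 6.44% fell and 5.44% rose. Mat2a, which makes the methyl donor S-adenosylmethionine from methionine, fell 1.10-fold, from 3187 ± 134 to 2902 ± 145 normalized counts (n = 3, SD; limma adjusted p = 0.0193). The Mat2a call was lost without sgControl replicate 2 or 3 or sgNSD3 replicate 3 (limma adjusted p = 0.0846, 0.0745 and 0.196). Under quantile normalization it was lost too (limma adjusted p = 0.0522). The list median log2 fold was 0.0086, and 17 genes were not called.

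Cytosolic aminoacyl-tRNA synthetases, which load amino acids onto tRNAs, held 5 falls among 20 tested genes, where 6.44% of all tested genes fell, and 15 were not called. Aars, the alanyl enzyme, had 8064, 7876 and 7748 normalized counts in sgControl and 7053, 7144 and 7258 in sgNSD3, without overlap, and fell 1.10-fold (limma adjusted p = 0.00111). Sars, the seryl enzyme, fell 1.12-fold, from 3138 ± 32.2 to 2814 ± 38.4 normalized counts (n = 3, SD; limma adjusted p = 0.00132). Rars, Tars and Nars, which load arginine, threonine and asparagine, fell 1.10-fold, 1.09-fold and 1.09-fold (limma adjusted p = 0.00756, 0.00669 and 0.0113). The median log2 fold of the list was -0.05. Without sgNSD3 replicate 1 or 3 the count was 3 instead of 5. The Rars call was lost without sgNSD3 replicate 3 (limma adjusted p = 0.0534), the Tars call without replicate 1 (0.0607) and the Nars call without either (0.0663 and 0.0877) and under quantile normalization (0.0667). Of 13 of these genes with a promoter window, 5 held the TGATGNAA motif, namely Aars and Tars, which were called lower, and Gars, Iars and Yars, which were not called (limma adjusted p = 0.0864, 0.938 and 0.60). Of all 27025 genes with a window, 4.51% held it. Among called genes of the other lists the motif was found in Slc7a11 and Vldlr, which were called higher, and in Jdp2, called lower.

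Of 16 tested genes among other amino acid transporters, 2 were called higher and 1 lower, where 5.44% and 6.44% of all tested genes were. Slc7a11, which takes up cystine, had 459, 474 and 503 normalized counts in sgControl and 653, 685 and 711 in sgNSD3, a 1.43-fold rise without overlap (limma adjusted p = 7.35e-07). Slc43a1, a neutral amino acid carrier, was 1.44-fold higher at a low level, from 80.3 ± 14.3 to 116 ± 20.5 normalized counts (n = 3, SD; limma adjusted p = 0.0216), and its conditions overlapped. Slc7a1, a carrier of arginine and lysine, fell 1.08-fold, from 6132 ± 46 to 5694 ± 44.6 normalized counts (n = 3, SD; limma adjusted p = 0.0124). The Slc43a1 call was lost without sgControl replicate 1 or 3 or sgNSD3 replicate 2 or 3 (limma adjusted p = 0.0598 to 0.131). The Slc7a1 call was lost without sgNSD3 replicate 1 or 2 (limma adjusted p = 0.076 and 0.0725) and under quantile normalization (0.0743).

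Among 15 other amino acid synthesis genes, 2 rose and 3 fell, where 5.44% and 6.44% of all tested genes did. Glul, which makes glutamine from glutamate, rose 1.25-fold, from 276 ± 17.2 to 345 ± 23.7 normalized counts (n = 3, SD; limma adjusted p = 0.00708). The urea cycle enzymes Ass1 and Asl, which together make arginine, fell 1.20-fold and 1.16-fold (limma adjusted p = 0.00232 and 0.0381). Bcat1, which transaminates branched-chain amino acids, fell 1.09-fold (limma adjusted p = 0.0136). The Glul call was lost without sgNSD3 replicate 2 or 3 (limma adjusted p = 0.0533 and 0.0528), and the Bcat1 call without sgNSD3 replicate 1 or 2 (0.131 and 0.0604). The Asl call was lost without any 1 library except sgControl replicate 3 (limma adjusted p up to 0.146). Quantile normalization (limma adjusted p = 0.0553) and leaving out the count filter (0.0548) also ended it.

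Of 13 tested genes among other stress targets of ATF4, 1 rose and 2 fell, where 5.44% and 6.44% of all tested genes did. Vldlr, a lipoprotein receptor, rose 1.23-fold, from 826 ± 55.7 to 1013 ± 40.7 normalized counts (n = 3, SD; limma adjusted p = 0.000264). Stc2, a secreted glycoprotein, fell 1.29-fold, from 165 ± 8.1 to 128 ± 11.5 (n = 3, SD; limma adjusted p = 0.0259), and Map1lc3b, an autophagosome protein, 1.07-fold (limma adjusted p = 0.0465). The Stc2 call was lost without sgControl replicate 1 or 2 or sgNSD3 replicate 1 (limma adjusted p = 0.0747, 0.0605 and 0.153). The Map1lc3b call was lost without any 1 library except sgControl replicate 1 (limma adjusted p up to 0.175), and in 12 of the 15 alternatives in all.

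In the XBP1 and ATF6 branches of the unfolded protein response, which run beside the ATF4 branch, 1 of 17 tested genes rose and 2 fell. Over all tested genes, 5.44% rose and 6.44% fell. Ern1, the sensor that splices Xbp1 RNA, rose 1.12-fold, from 1569 ± 47.2 to 1760 ± 38.3 normalized counts (n = 3, SD; limma adjusted p = 0.00467). Pdia4, a disulfide isomerase, fell 1.12-fold and Xbp1 1.09-fold (limma adjusted p = 0.000258 and 0.0406). The Xbp1 call was lost without sgControl replicate 2 (limma adjusted p = 0.273) and without any 1 of the sgNSD3 replicates (0.108 to 0.15). It was also lost under quantile normalization (limma adjusted p = 0.0986), and in 9 of the 15 alternatives in all. Over all 8 lists, 7 of 124 tested genes rose, where 5.44% of all tested genes did, and 17 fell, where 6.44% did. Of these 24 calls, 9 held under each of the 15 alternatives tried, among them Cebpb, Slc7a11, Ass1, Aars, Sars, Vldlr, Ern1 and Pdia4. The count of falls was 11 without sgControl replicate 2, and 8, 9 and 9 without sgNSD3 replicates 1, 2 and 3.

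**Figure D4:**
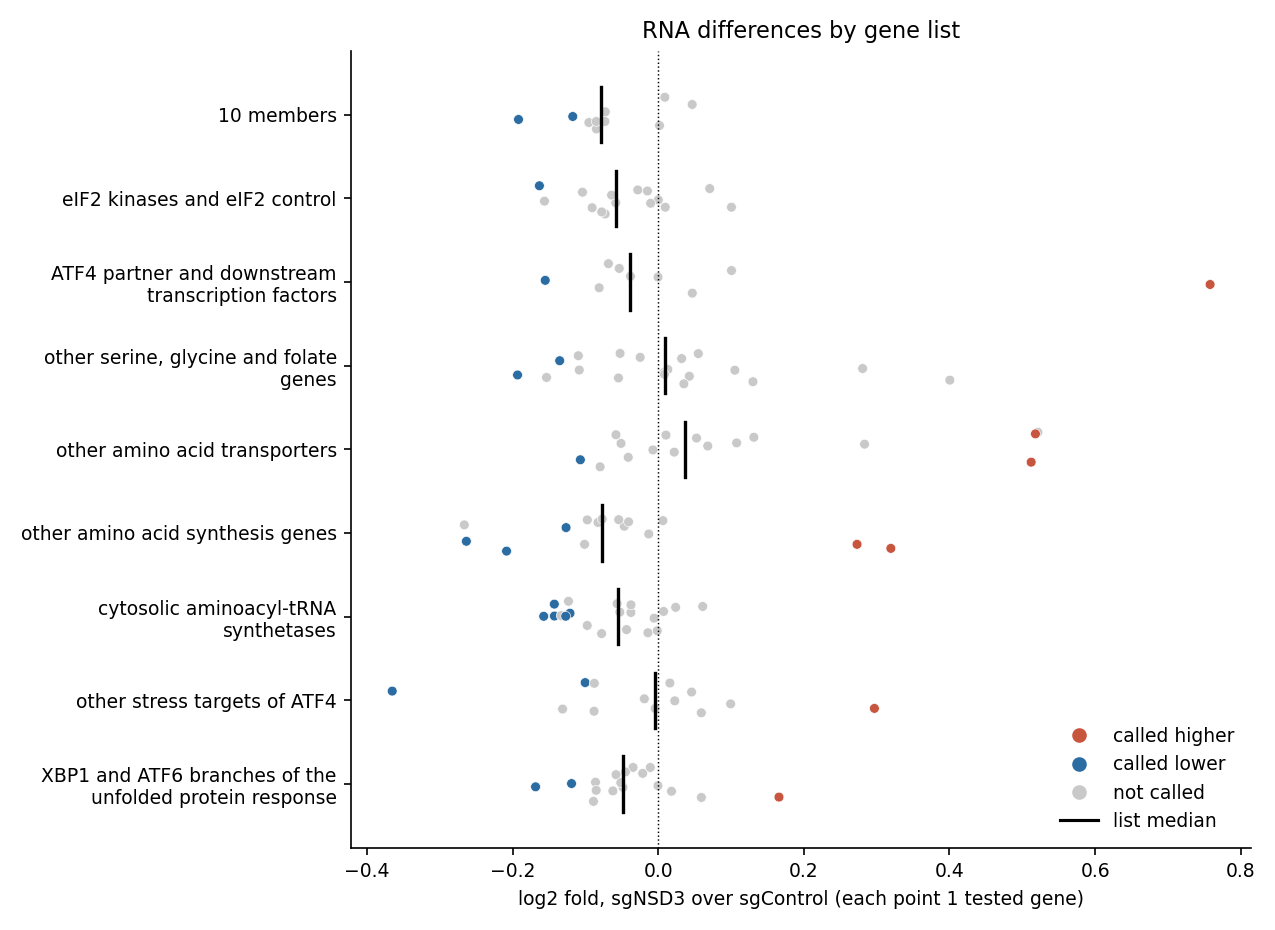
Log2 fold of sgNSD3 over sgControl (x axis) of each tested gene (point) in the set of 10 and in 8 lists of related genes (rows), coloured by call, with the median of each row as a vertical bar. The medians lie between -0.08 and 0.04. The points farthest to the right are Cebpb and the transporters Slc7a7, Slc43a1 and Slc7a11. Slc7a7, at means of 20.2 and 28.3 normalized counts in sgControl and sgNSD3, was not called.

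The genes whose 6 library values followed those of Atf4 most closely were Mpi, Tcf3, Fkbp10, Chst12 and Atp5d, out of 12041 genes with a mean of at least 32 normalized counts. Likeness was the largest gap between a gene and Atf4 in any library, after each was set relative to its sgControl mean on the log2 scale, and this gap was 0.025 for Mpi and 0.034 for Atp5d. Of these 5 genes, Fkbp10 and Chst12 were called lower (limma adjusted p = 0.00468 and 0.0364). The 5 were picked for values like those of Atf4, so a lower level in sgNSD3 was fixed by the choice. Among the members, Asns came nearest to Atf4 (rank 65, gap 0.049), followed by Psat1 (rank 508) and Phgdh (rank 892), while Atf5 was farthest (rank 8617, gap 0.28). With 6 libraries of 2 conditions these ranks describe the libraries and were not tested.

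The chromatin values were signed scores for H3K36me2, the mark that NSD3 places, and H3K27me3, a mark of Polycomb repression. The authors' deposited table gives 1 score per gene body and column and does not state which libraries were compared or in which direction, so no difference between the conditions is given. The first H3K36me2 column was above 0 for all 10 members, as for 89.4% of all gene bodies, and the second for 8 of 10, against 92.4% (the authors' deposited table). The columns put 6 of 10 members on opposite sides of their medians, as they did 43.2% of all gene bodies in the authors' deposited table, with Atf5 and Atf4 the farthest apart. In the authors' deposited table Atf4 scored 0.0137 in the first and 0.187 in the second H3K36me2 column, the 17.5th and 74.9th percentile of gene bodies, and Atf5 scored 0.132 and -0.00824, the 82.9th and 4.48th percentile.

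Psat1 and Shmt2 were the members above the median in both H3K36me2 columns, with Psat1 at 0.0902 and 0.236 and Shmt2, only just in the first (median 0.0757), at 0.0769 and 0.167 in the authors' deposited table. In the first column Shmt2 fell below the median among gene bodies with tested RNA (45.8th percentile) and among those nearest in length (49.6th). Without mitochondrially encoded genes it stayed above, at the 50.6th percentile. Phgdh and Mthfd2 were below the median in both H3K36me2 columns, with Phgdh at 0.0262 and -0.00941 and Mthfd2 at 0.0135 and 0.0244 in the authors' deposited table. By comparison, 28.4% of all gene bodies in that table lay above both medians and 28.4% below both. The enzymes of serine synthesis thus lay on both sides of the median. In the authors' deposited table the remaining members had percentiles of 86.5 and 49 (Trib3), 77.4 and 39.4 (Chac1), 36 and 86.1 (Asns) and 37.7 and 56.8 (Slc7a5) in the first and second H3K36me2 column.

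For H3K27me3, the authors' deposited table put 2 of 10 members above 0, Asns at 0.0234 and Psat1 at 0.00597, against 31.5% of all gene bodies. Chac1 and Phgdh had the lowest H3K27me3 scores of the set in the authors' deposited table, -0.113 each, at the 9.06th and 9.18th percentile. The other members lay between -0.0685 (Mthfd2) and -0.0183 (Shmt2) in the authors' deposited table. The called genes Atf4 and Atf5 were near the middle of all gene bodies for this mark, at the 45th and 52.1st percentile of the authors' deposited table. Among gene bodies with tested RNA they stood higher, at the 54.7th and 65.7th percentile.

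**Figure D5:**
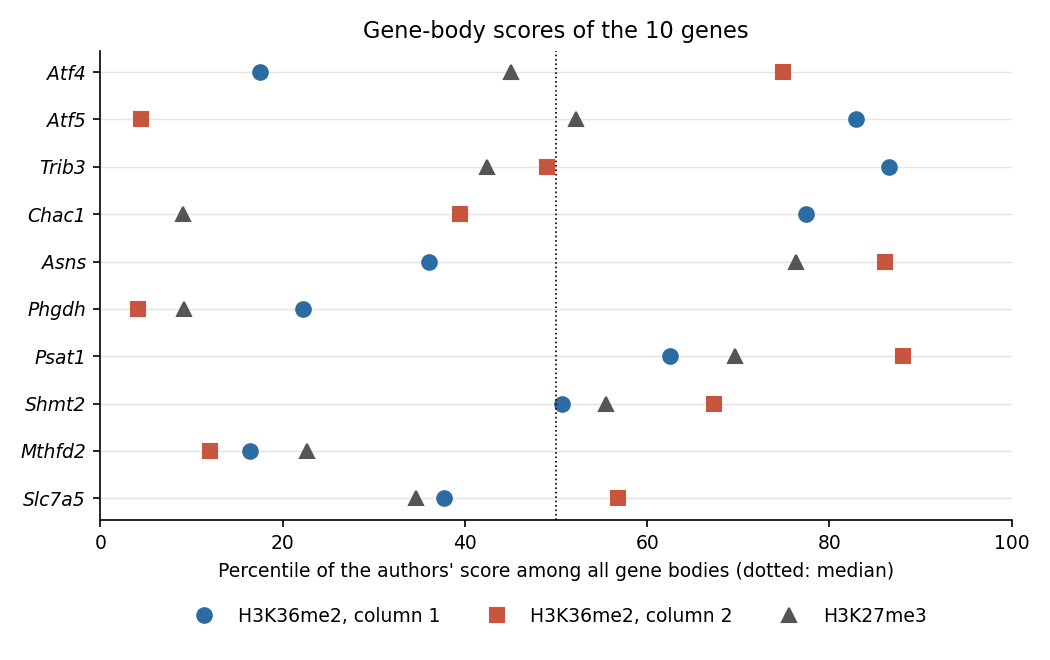
Percentile of the authors' score among 22470 gene bodies (x axis; dotted line at the median) for the 10 genes (rows) in 2 H3K36me2 columns (circles and squares) and 1 H3K27me3 column (triangles). Atf4 and Atf5 have their H3K36me2 columns far apart and in opposite order, while Mthfd2 and Phgdh lie below the median in all 3 columns.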

How the data were processed

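RNA of 6 libraries was analysed. The submitters' processing notes name HISAT2, featureCounts, DESeq2 (all run by the authors) and mm10. The deposited RNA values are variance-stabilised log2 values of the authors, where a gene with 0 reads has the value 8.45. Turning the closed form of that transform back gave whole multiples of 1 step per library for 100% of values above 0 (tolerance 0.05), here called counts. The authors deposited signed scores for gene bodies, made in a way not given in the sources used here. There were 0 other value columns.

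Genes with a mean of at least 8 normalized counts (18263) were tested with limma 3.58.1 in R 4.3.3 (with a mean-variance trend), applied to log2 values as deposited, Benjamini-Hochberg adjusted over all of these genes, at a threshold of 0.05. Before this the fit was run on simulated counts with the same dispersion for all genes and libraries. The real sgControl libraries spread more than the sgNSD3 libraries, so the simulation does not vouch for these calls. Log2 folds, standard errors and 95% intervals came from limma on log2(normalized count + 1), and ratios from mean normalized counts. Members and lists were chosen with earlier results of these data known. Named were all members, up to 4 called genes per list with the largest change on the deposited scale, and the 5 genes most like Atf4; Asl, Nars and the uncalled Eif2ak3, Eif2ak4, Ddit3, Slc3a2 and Slc7a7, with Nup62 and Phgdh-ps1, were added after their values were seen, and 1 gene that the rule names is not reported here. Other pseudocounts were not tried. Mars1 and Pycr3 were found under older symbols through RefSeq synonyms. Replicate numbers follow the sample titles. For sgNSD3 the descriptions number the same libraries 3, 1 and 2. Alternatives were other filters, scales, normalizations, replicate blocks and left-out libraries.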

Additional observations from a re-analysis of the deposited data

How the results depend on the processing

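The count of members called lower, 2, became 4 with a minimum mean of 32 normalized counts, which leaves fewer genes tested, 0 under quantile normalization, 1 without a mean-variance trend and 1 under upper-quartile scaling (the cause of the last 3 was not tested). It ranged from 0 to 2 when 1 library was left out. The count of list genes called lower, 17, became 10 under quantile normalization (the cause was not tested) and ranged from 8 to 20 with 1 library left out. All genes called, 2170, ranged from 1352 to 2152 with 1 library left out. Chac1 and Mthfd2, which lie near 0, changed sign on the deposited log2 scale: Chac1 ranged from -0.0147 to 0.0173 with 1 library left out, being below 0 for 3 of the 6 (-0.0147, -0.0094 and -0.0045), and was -0.0003 with voom, and Mthfd2 ranged from -0.0145 to 0.0230, being below 0 for 2 of the 6 (-0.0095 and -0.0145). The replicate block by title number gave 2452 calls and 2 members lower (Atf5 adjusted p = 2.88e-05, Atf4 0.00948), and by description number 2005 calls and 2 members lower, with the Map1lc3b call lost (0.0752). The blocks ended no other call of a named member or list gene. Same-numbered libraries did not deviate together (r of 0.0379, 0.0139 and 0.0105 by title number), so the numbers were not taken as pairs. Of 90 gene-body percentiles recomputed, 13 moved beyond the tolerance, by at most 14 points. For H3K36me2 the tolerance was the SD of the gene's own percentiles in the 2 columns, and for H3K27me3 a fixed number of points. A gene whose columns lie far apart, such as Atf5 or Atf4, could hardly exceed it, so the count does not measure stability. Upper-quartile scaling and voom were chosen after seeing the data. The planned edgeR, TMM and DESeq2 fits were not run, and voom on the recovered counts is the count-based fit given.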
